A study of Mus musculus with 28 samples.

Results

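The genes described here are the 6 genes of type IV collagen, Col4a1 to Col4a6. They were taken from the deposited expression tables as the rows whose Ensembl identifier carries one of these symbols, which gave 6 of the 45706 genes listed. All 6 had a value above 0 in every library and therefore passed the filter on low values in each comparison. The family was chosen by its measured TPM in WT5 and polyclonal cells, where Col4a1 and Col4a2 stood out, so the values of that comparison are given as a description and without a p-value.

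Type IV collagen is the collagen of basement membranes, the sheets of matrix on which epithelia rest. Its chains assemble in threes inside the cell, are hydroxylated and glycosylated on the way, and are linked into a network outside. The chains of Col4a1 and Col4a2 form the widespread trimer, those of Col4a3, Col4a4 and Col4a5 form the trimer of the mature glomerular basement membrane that is also found in parts of the renal tubule, and those of Col4a5 and Col4a6 combine in a trimer found around collecting ducts and Bowman's capsule. Defects of COL4A3, COL4A4 or COL4A5 cause Alport syndrome in humans.

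The data are 28 RNA-seq libraries of mIMCD-3, an epithelial cell line derived from inner medullary collecting duct of a mouse with SV40 transgenes. Polyclonal WT cells, the monoclonal line WT5 and subclones 1 to 5 had 4 libraries each, and all were unedited WT cells. WT5 is 1 clone grown from a single sorted polyclonal cell, and each subclone is 1 clone sorted from WT5 in turn. The labels give one set of culture conditions, with RNA isolated 4 days after confluency. Values are in TPM, the share of a gene among all transcripts of a library after correction for gene length, so that levels may be compared between genes.

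Some features of the series touch the results. Polyclonal cells were sequenced at another time and with shorter, single-end reads than WT5, so sequencing batch and line cannot be told apart, and the subclones are in a table of their own, so table and line cannot be told apart against WT5. Comparisons among the subclones stay within 1 table. Whether replicates were biological, as in the methods, or technical, as in a figure legend, is not settled, so p-values may measure technical spread only. Depth is unknown, since TPM keeps no read number. Genes above 0 TPM numbered 18681 to 19272 per polyclonal library, 16318 to 16536 in WT5 and 16270 to 17004 in the subclones. The part of this difference in the results was not tested. Subclone 3 replicate 2 and subclone 5 replicate 1 stood apart from their groups, with median absolute log2 deviations of 0.181 and 0.204 over genes against 0.0437 to 0.117 in the other libraries. Of the collecting duct markers, Aqp2, Aqp4, Scnn1b and Elf5 had means below 0.1 TPM in every group. The summed level of the 16 epithelial and collecting duct markers was 1741 to 2036 TPM per library in polyclonal cells, 3040 to 3135 TPM in WT5 and 1865 to 2310 TPM in the subclones. Members of this list moved with the difference between WT5 and polyclonal cells in both directions: from polyclonal cells to WT5 the means went from 360 to 1005 TPM for Krt8, a keratin gene, from 10.6 to 0.06 TPM for Avpr2, the vasopressin receptor gene, from 4.08 to 0.04 TPM for Gata3 and from 14.3 to 4.85 TPM for Scnn1g. Their part in the results was not tested. Markers of other cell types were low: the 7 endothelial markers summed to 0.3 TPM or less and the 10 fibroblast and mesangial markers to 4.52 TPM or less in each library.

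The 6 genes lie as 3 pairs, each with its starts side by side and transcribed in opposite directions (GRCm38, GENCODE M21). Col4a1 (ENSMUSG00000031502, minus strand) spans chr8:11198423-11312826 and Col4a2 (ENSMUSG00000031503, plus strand) spans chr8:11312805-11449287, so that their annotated first exons overlap by 22 bases. Col4a4 (ENSMUSG00000067158, minus strand) spans chr1:82448423-82586849 and Col4a3 (ENSMUSG00000079465, plus strand) spans chr1:82586921-82722059, with 71 bases between their starts. Col4a6 (ENSMUSG00000031273, minus strand) spans chrX:141165403-141474076 and Col4a5 (ENSMUSG00000031274, plus strand) spans chrX:141475385-141689234, and here the starts lie 1309 bases apart. The pairs thus differ in how closely their starts adjoin.

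Stretches at some of the starts are shown because the results below turn on whether the genes of a pair moved together. None is shown for Col4a1 and Col4a2, whose first exons overlap and whose starts were not searched for motifs. They come from the RefSeq promoter windows of GRCm38.p6, which hold 5 of the 6 genes. The stretch between Col4a4 and Col4a3 is chr1:82586850-82586920, read on the minus strand. The bases before the start of Col4a5 are chrX:141475169-141475384 on the plus strand. Capitals mark a CCAAT box.
Col4a4/Col4a3: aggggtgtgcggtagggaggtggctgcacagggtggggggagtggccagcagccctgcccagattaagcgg
Col4a5: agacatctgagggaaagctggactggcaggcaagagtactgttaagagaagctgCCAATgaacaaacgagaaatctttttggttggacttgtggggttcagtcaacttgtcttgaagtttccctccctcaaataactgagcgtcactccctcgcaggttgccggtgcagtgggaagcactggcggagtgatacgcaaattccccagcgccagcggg

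A search on both strands for the CCAAT box (CCAAT), the GC box (GGGCGG) and the TATA box (TATAAA) found none of them in the stretch between Col4a4 and Col4a3. Among the 32851 RefSeq promoters, 13.3%, 20.7% and 4.41% hold them in the 71 bases before the start. Its GC content was 69.0%, against a median of 54.9% in those promoters. The 216 bases before Col4a5 hold 1 CCAAT box, which 30.8% of promoters hold in the same length, and neither of the other motifs. Their GC content was 52.3%, against a median of 52.8%. The 250 bases before Col4a6, not shown, hold 1 GC box, which 32.7% of promoters hold in the same length, and neither of the other motifs. A match describes letters only.

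Between WT5 and polyclonal cells, Col4a1 and Col4a2, the genes of the widespread trimer, went from below 1 TPM to being the most abundant type IV collagen genes. Col4a1 had 0.49, 0.25, 0.41 and 0.48 TPM in the polyclonal libraries and 90.84, 91.65, 104.53 and 89.78 TPM in those of WT5. Col4a2 had 0.54, 0.78, 0.95 and 0.55 TPM in polyclonal cells and 77.5, 72.64, 86.76 and 75.98 TPM in WT5. For both genes every WT5 library lay far above every polyclonal library. The ratio of the group means was 231 for Col4a1 and 111 for Col4a2, with z-score differences of 2.47 (standard error 0.0608) and 2.13 (standard error 0.0620). The z-score is the distance of log2(TPM) from the mean over genes within a library, in SD, and here 1 z-score equals 8.41 to 8.81-fold in TPM. In bulk libraries fewer cells that transcribe a gene and less RNA per cell cannot be told apart, which bears on the polyclonal cells above all.

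Col4a3 had 9.97, 9.46, 11.07 and 9.61 TPM in polyclonal cells and 29.06, 29.86, 31.93 and 31.53 TPM in WT5, a ratio of 3.05 between the means and a z-score difference of 0.45 (standard error 0.0155). Its partner Col4a4 had 15.85, 14.56, 15.97 and 16.09 TPM against 19.72, 21.84, 22.04 and 21.78 TPM, a ratio of 1.37. Both were higher in every WT5 library than in every polyclonal library, by much less than the first pair.

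Col4a5, on the X chromosome, had 33.34, 32.71, 34.12 and 33.53 TPM in polyclonal cells and 36.36, 35.05, 39.9 and 35.13 TPM in WT5, a ratio of 1.10 without overlap of the libraries. Its direction depended on the scaling, with a log2 difference of 0.13 and a z-score difference of -0.0259. The median log2 difference of all genes was 0.24. Col4a6 had 13.61, 12.97, 15.28 and 13.42 TPM against 12.42, 13.79, 14.57 and 12.37 TPM, a ratio of 0.961 with overlapping libraries. This pair thus had nearly the same level in both lines.

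A gene was called differentially expressed where its adjusted p-value was below 0.01 and the z-scores differed by more than 1. Between WT5 and polyclonal cells 2 of the 6 genes were called, Col4a1 and Col4a2, both higher. Among all 13723 genes tested 5.43% did, and 2.31% were called as higher in WT5. Without the requirement on size 5 of 6 passed, against 65.5% of all genes, among them Col4a6 as lower, with a z-score difference of -0.0902 that turned to 0.000658 with log2(TPM + 0.1). Of the 6 genes, 5 had WT5 libraries that all lay above the polyclonal libraries, which also held for 48.5% of all genes. Since these members were chosen with this comparison known, nothing is read from the counts. Nearest to the size threshold of 1 among the 6 were Col4a2 above it with 2.13 and Col4a3 below it with 0.45, neither of them close.

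**Figure D1:**
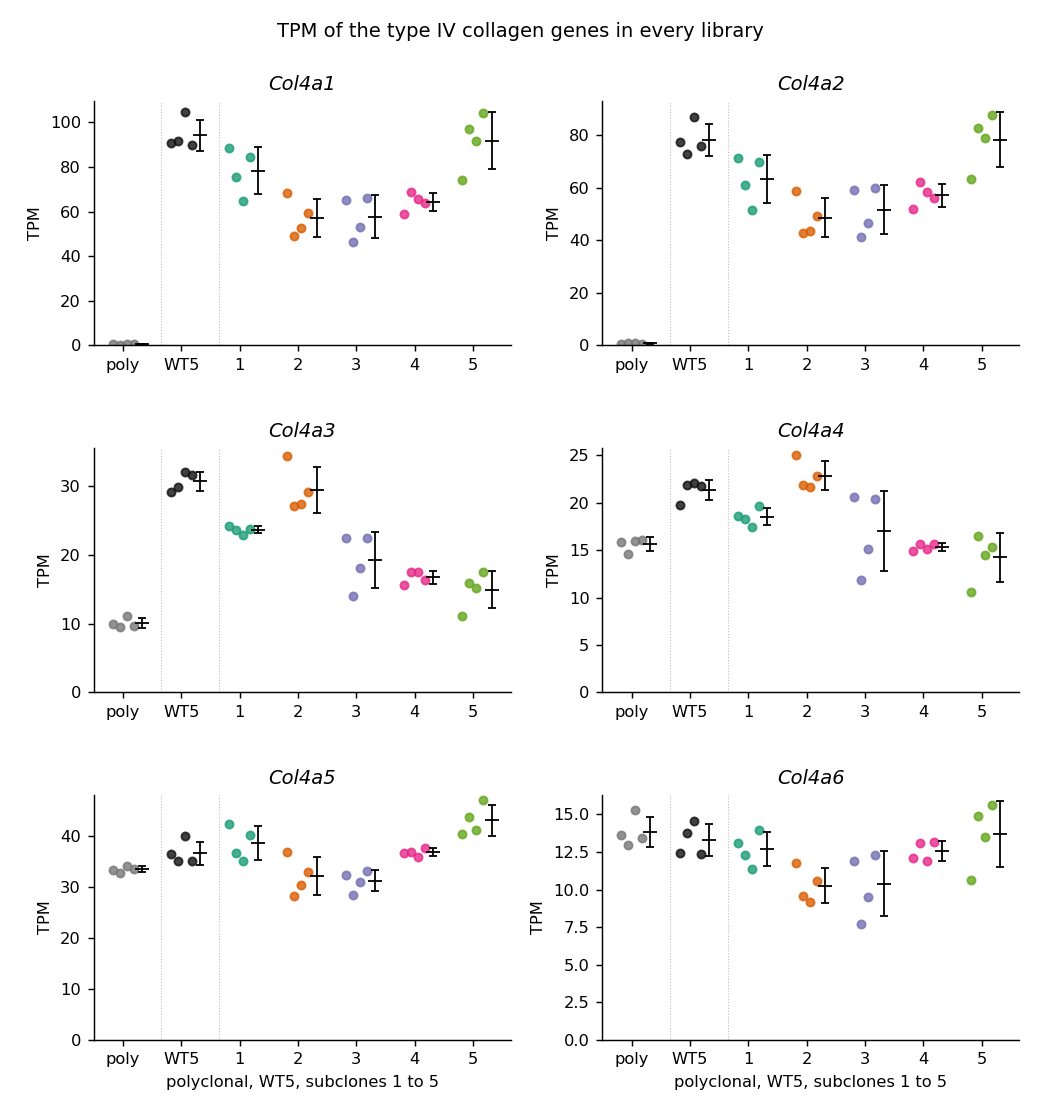
TPM of each of the 6 genes (vertical axes, linear from 0) in the 4 libraries of polyclonal cells (poly), WT5 and subclones 1 to 5, as points in replicate order, with the mean and SD of each group beside them. Col4a1 and Col4a2 are below 1 TPM in polyclonal cells and between 41.14 and 104.53 TPM in all other libraries, whereas the other 4 genes are present in every group.

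The make-up of the type IV collagen transcripts differed accordingly. The 6 genes summed to between 70.73 and 77.8 TPM in the polyclonal libraries and between 264.83 and 299.73 TPM in those of WT5. Col4a1 and Col4a2 together held 1.499% ± 0.168 (SD, n = 4) of that sum in polyclonal cells and 62.8% ± 0.868 in WT5. The share of Col4a5 and Col4a6 was 63.9% ± 0.495 and 18.2% ± 0.274, although their own levels were close. In the subclones Col4a1 and Col4a2 held between 52.7% ± 1.18 in subclone 2 and 66.4% ± 0.688 in subclone 5. The polyclonal libraries were thus dominated by the X-linked pair, and those of WT5 and all its subclones by the first pair.

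**Figure D2:**
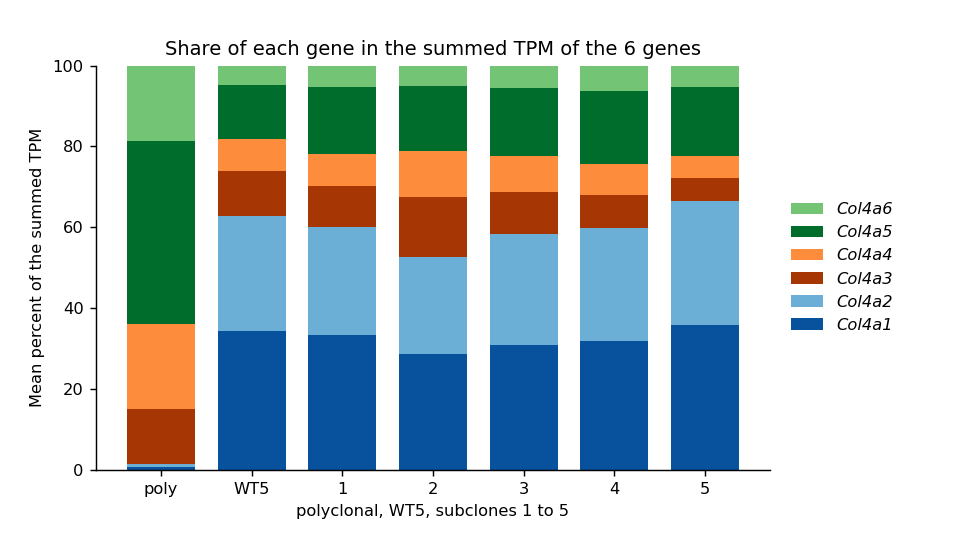
Mean share of each gene in the summed TPM of the 6 genes (percent, stacked from Col4a1 at the bottom to Col4a6 at the top) in polyclonal cells (poly), WT5 and subclones 1 to 5. Col4a1 and Col4a2 take 1.499% of the polyclonal bar and between 52.7% and 66.4% of the other bars.

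All 20 subclone libraries retained Col4a1 and Col4a2 at levels far above the polyclonal libraries. Against WT5, none of the 6 genes was differentially expressed in any of the 5 subclones by the rule with both thresholds, by limma with Benjamini-Hochberg adjustment or by the unequal-variance test. In all genes the rule called 0.152%, 0.144%, 0.173%, 0.202% and 0.173% in subclones 1 to 5. At an unadjusted p below 0.05 in limma's test there were 3, 4, 5, 4 and 3 of the 6 genes, with 51.0%, 51.5%, 46.2%, 59.0% and 49.1% of all genes. The 5 comparisons share the 4 WT5 libraries.

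The values against WT5 are therefore given side by side. The mean of Col4a1 was 0.831, 0.607, 0.612, 0.683 and 0.974 times that of WT5 in subclones 1 to 5, and that of Col4a2 was 0.810, 0.621, 0.661, 0.730 and 1.00 times. For Col4a3 the ratios were 0.771, 0.961, 0.628, 0.546 and 0.486, and for Col4a4 0.866, 1.07, 0.797, 0.718 and 0.667. Subclone 5 thus came nearest to WT5 for the first pair and was farthest from it for the second. Past an adjusted p-value of 0.01 without a requirement on size were 2, 3, 2, 4 and 3 of the 6 genes, against 26.3%, 26%, 19.5%, 37.3% and 21.9% of all genes. The largest of these was the lower Col4a3 of subclone 5, at -0.32 in z-score with a standard error of 0.0292 (limma, adjusted p = 0.000278). The sign for Col4a1 and Col4a2 in subclone 5 depended on the scaling, with z-score differences of 0.0351 and 0.0458 and log2 differences of -0.0460 and -0.00712, none past the threshold.

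The subclones differed from one another in all 6 genes. In a moderated F test over the 5 subclones (limma with Benjamini-Hochberg adjustment over 14031 genes), 6 of 6 passed an adjusted p-value of 0.01, with no requirement on size, against 24.6% of all genes. The adjusted p-values were 0.000105 for Col4a1, 0.000364 for Col4a2, 2.6e-06 for Col4a3, 0.000423 for Col4a4, 1.38e-05 for Col4a5 and 0.00186 for Col4a6. The differences were modest: the highest mean of a subclone was 1.60, 1.61, 1.98, 1.61, 1.38 and 1.33 times the lowest for Col4a1 to Col4a6 in order. Without z-scores Col4a4 and Col4a6 did not pass (adjusted p = 0.0123 and 0.0782, limma). With log2(TPM + 0.1) over genes above 0 in any library Col4a6 did not pass either (adjusted p = 0.0108, limma). Over all alternatives the adjusted p-values ran from 1.74e-05 to 0.0123 for Col4a4 and from 0.00064 to 0.0782 for Col4a6 (limma).

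Col4a1 showed its levels in the order subclone 2, 3, 4, 1 and 5. Its values were 68.2, 49.02, 52.42 and 59.23 TPM in subclone 2 and 65.29, 46.45, 52.91 and 65.98 TPM in subclone 3. Subclone 4 had 58.8, 68.83, 65.66 and 64.05 TPM and subclone 1 had 88.38, 75.51, 64.65 and 84.44 TPM. Subclone 5 had 74.25, 96.94, 91.54 and 104.38 TPM. Each subclone overlapped with the next in this order and only the polyclonal libraries stood clear of their neighbour, while subclones 2 and 5 at the ends did not overlap.

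Col4a2 gave the same order of the subclones. It had 58.75, 42.83, 43.51 and 49.18 TPM in subclone 2, 58.94, 41.14, 46.69 and 59.91 TPM in subclone 3 and 51.79, 62.05, 58.32 and 56.25 TPM in subclone 4. Subclone 1 had 71.26, 60.89, 51.59 and 69.81 TPM and subclone 5 had 63.44, 82.81, 78.9 and 87.78 TPM. Neighbours among the subclones again overlapped.

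Col4a3 showed the widest range among the subclones and another order, with subclone 5 lowest and subclone 2 highest. It had 11.11, 15.93, 15.09 and 17.4 TPM in subclone 5, 15.52, 17.49, 17.48 and 16.29 TPM in subclone 4 and 22.39, 14.03, 18.08 and 22.34 TPM in subclone 3. Subclone 1 had 24.1, 23.61, 22.87 and 23.77 TPM and subclone 2 had 34.22, 27.03, 27.38 and 29.03 TPM. The libraries of subclone 1 lay above all those of subclones 3, 4 and 5, and those of subclone 2 lay above all others of the subclones. WT5 had the highest mean, with libraries overlapping those of subclone 2.

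Col4a4 followed Col4a3 over a narrower range. It had 10.56, 16.49, 14.51 and 15.36 TPM in subclone 5, 14.9, 15.67, 15.07 and 15.64 TPM in subclone 4 and 20.61, 11.88, 15.16 and 20.42 TPM in subclone 3. Subclone 1 had 18.62, 18.23, 17.48 and 19.64 TPM and subclone 2 had 25.04, 21.88, 21.67 and 22.81 TPM. Subclones 5 and 4 had about the level of polyclonal cells, with overlapping libraries.

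Col4a5 ran from 32.42, 28.44, 30.94 and 33.07 TPM in subclone 3 to 40.44, 43.71, 41.1 and 47.06 TPM in subclone 5, without overlap between these. Subclone 2 had 36.87, 28.21, 30.44 and 32.91 TPM, subclone 4 had 36.68, 36.94, 35.9 and 37.73 TPM and subclone 1 had 42.35, 36.75, 35.08 and 40.18 TPM. Its order of subclones was nearly that of Col4a1, with subclones 2 and 3 at the lower end and subclone 5 at the upper end.

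Col4a6 had the lowest mean of the 6 genes in WT5 and in every subclone. It had 11.79, 9.54, 9.15 and 10.54 TPM in subclone 2, 11.93, 7.71, 9.53 and 12.33 TPM in subclone 3 and 12.09, 13.11, 11.91 and 13.2 TPM in subclone 4. Subclone 1 had 13.11, 12.27, 11.35 and 13.99 TPM and subclone 5 had 10.67, 14.92, 13.47 and 15.65 TPM. Here even the lowest and the highest subclone overlapped.

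Each subclone was also set against the mean of the other subclones. Each subclone is thus part of the reference of every other, which by itself pushes the differences of subclones 2 and 5 in opposite directions, so both were also set against the mean of subclones 1, 3 and 4 alone. In subclone 5 all 6 genes passed an adjusted p-value of 0.01, against 14.5% of all genes, of which 6.98% were higher and 7.55% lower. Col4a1, Col4a2, Col4a5 and Col4a6 were higher, with z-score differences of 0.18, 0.18, 0.12 and 0.0984, and Col4a3 and Col4a4 were lower, with -0.17 and -0.11. The adjusted p-values lay between 1.63e-05 for Col4a5 and 0.00731 for Col4a4 (limma). Without z-scores 4 of 6 passed, Col4a1, Col4a2, Col4a3 and Col4a5, all in the same direction as before. Against subclones 1, 3 and 4 alone the same 4 genes passed (15% of all genes), with z-score differences of 0.17, 0.16, -0.12 and 0.11, while Col4a4 had -0.0689 (adjusted p = 0.0776, limma) and Col4a6 0.0825 (adjusted p = 0.0180, limma).

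In subclone 2, 5 of 6 genes passed, against 5.95% of all genes, with 3.17% higher and 2.78% lower. Col4a3 and Col4a4 were higher, their z-scores differing by 0.22 (standard error 0.0248, adjusted p = 9.41e-06, limma) and 0.17 (standard error 0.0265, adjusted p = 0.000434, limma). Col4a1, Col4a2 and Col4a5 were lower, with -0.11, -0.12 and -0.0738 and adjusted p-values of 0.00976, 0.00954 and 0.0028 (limma), and Col4a6 had -0.0845 (adjusted p = 0.0254, limma). The lower calls of Col4a1 and Col4a2 were close to the threshold. Without z-scores only the higher Col4a3 was left of the 5 (3.61% of all genes passed). The higher Col4a4 did not pass either (adjusted p = 0.0128, limma). Leaving out single libraries gave between 2 and 6 genes. There were 2 without subclone 2 replicate 2, 3 or 4, and 3 without subclone 1 replicate 1, 2 or 4, without subclone 3 replicate 1 or 4, without any library of subclone 4, or without subclone 5 replicate 2, 3 or 4. Against subclones 1, 3 and 4 alone 2 of 6 passed (6.62% of all genes), Col4a3 at 0.19 and Col4a4 at 0.15, whereas Col4a1, Col4a2 and Col4a5 had -0.0710, -0.0787 and -0.0474 (adjusted p = 0.107, 0.0893 and 0.0516, limma). The higher Col4a3 passed in all alternatives without a requirement on size (adjusted p at most 0.000694, limma).

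The other subclones differed less in these genes. In subclone 1 none of 6 passed in limma's test, against 4.36% of all genes. An unadjusted p below 0.05 was found for 2 of the 6 and for 21.7% of all genes. Subclone 3 had 1 of 6, against 4.85%, which was a lower Col4a5 at -0.0793 (adjusted p = 0.00169, limma). Without both libraries that stood apart this was 0 of 6, with an adjusted p of 0.0102 for Col4a5 (limma; 0.000582 to 0.0202 over all alternatives). Subclone 4 had 1 of 6, against 18.4%, which was a lower Col4a3 with -0.11 (adjusted p = 0.00213, limma). It did not pass without z-scores (adjusted p = 0.0482, limma, the highest of a range from 2.75e-05) or without subclone 4 replicate 1 or 4, where 0 of 6 passed. Without subclone 3 replicate 2, or without both libraries that stood apart, 2 of 6 passed.

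**Figure D3:**
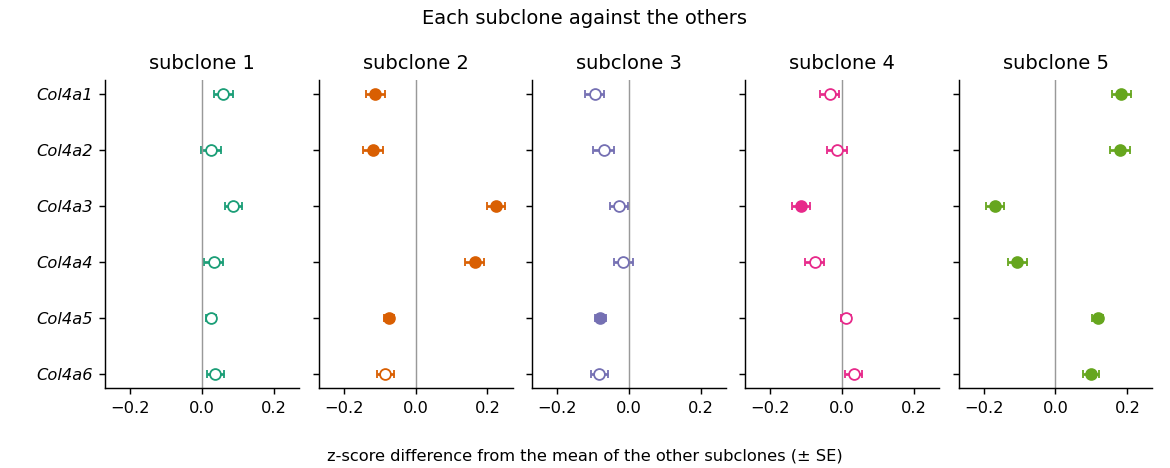
Difference in z-score of each gene between 1 subclone and the mean of the other subclones (horizontal axes, ± standard error from limma), with filled points for genes past an adjusted p-value of 0.01. In subclone 5 Col4a1, Col4a2, Col4a5 and Col4a6 lie above 0 and Col4a3 and Col4a4 below, and in subclone 2 the signs are reversed, where each of these subclones is part of the reference of the other.

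The contrast between the first and the second pair can be read within each library, where scaling between libraries plays no part. The ratio of Col4a1 plus Col4a2 to Col4a3 plus Col4a4 was 0.0433 ± 0.00487 (SD, n = 4) in polyclonal cells and 3.32 ± 0.210 in WT5. In subclones 1 to 5 it was 3.36 ± 0.374, 2.02 ± 0.122, 3.05 ± 0.223, 3.79 ± 0.128 and 5.88 ± 0.343. Every library of subclone 5 lay at or above 5.54 and every library of subclone 2 at or below 2.14, with all other subclone and WT5 libraries between 2.88 and 3.95. Both libraries that stood apart had the highest ratio of their groups, with 3.38 in subclone 3 replicate 2 and 6.35 in subclone 5 replicate 1. The remaining libraries had 2.89 to 3.00 in subclone 3 and 5.54 to 5.87 in subclone 5.

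The ratio of Col4a1 to Col4a2 stayed within narrow limits wherever both were expressed. It was 1.21 ± 0.0402 in WT5 and between 1.12 ± 0.0157 in subclone 3 and 1.24 ± 0.0185 in subclone 1. Over the 20 subclone libraries the ratio differed between subclones (permutation test of the F statistic with 100000 draws, p = 3e-05, adjusted over the 3 pairs 9e-05). In polyclonal cells, where both genes were below 1 TPM, it was 0.633 ± 0.301.

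The ratio of Col4a3 to Col4a4 was 0.642 ± 0.0402 in polyclonal cells and 1.43 ± 0.0463 in WT5. In subclones 1 to 5 it was 1.28 ± 0.0450, 1.28 ± 0.0570, 1.14 ± 0.0561, 1.09 ± 0.0585 and 1.05 ± 0.0683, and these differed between subclones (permutation test, p = 8e-05, adjusted 0.00012). The polyclonal libraries were the only group in which Col4a4 exceeded Col4a3 in every library. The ratio of Col4a5 to Col4a6 was 2.43 ± 0.132 in polyclonal cells, 2.76 ± 0.166 in WT5 and 2.93 to 3.19 in the means of the subclones, which were not told apart (permutation test, p = 0.792, adjusted 0.792).

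**Figure D4:**
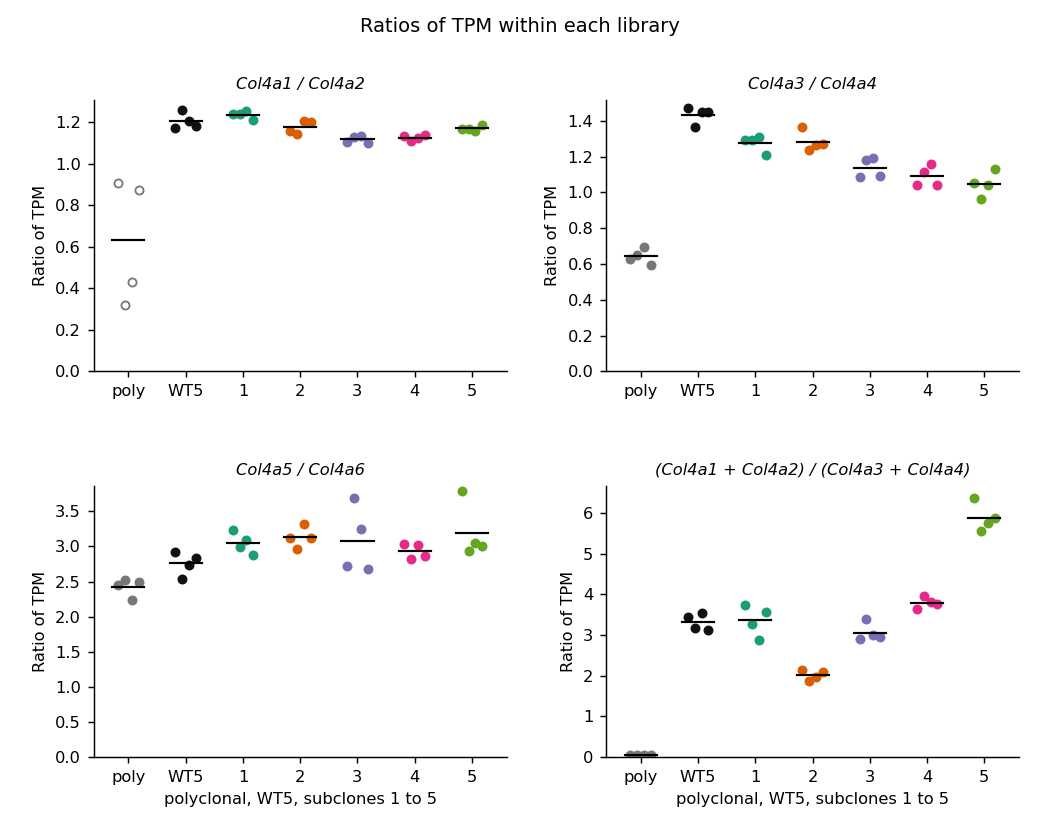
Ratio of TPM between the genes of each pair, and between the summed first and second pair, in every library (points) with the mean of each group (bars), for polyclonal cells (poly), WT5 and subclones 1 to 5. Open points mark polyclonal libraries with both genes below 1 TPM, and in the last panel subclone 5 lies highest and subclone 2 lowest of the subclones.

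Over the 20 subclone libraries, log2(TPM + 0.1) of the genes of a pair varied together, with Pearson's r of 0.985 for Col4a1 and Col4a2, 0.959 for Col4a3 and Col4a4 and 0.868 for Col4a5 and Col4a6. These are descriptions without a p-value, since the 4 libraries of a subclone are not independent points and share their scaling. Col4a1 also varied with Col4a5 (r = 0.943) and Col4a6 (r = 0.884), but not with Col4a3 (r = -0.168) or Col4a4 (r = -0.0947). Col4a5 encodes a chain of both other trimers, and across the subclones it varied with the first pair and not with Col4a3 (r = -0.296) or Col4a4 (r = -0.239).

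Among the 12143 genes with a mean of at least 1 TPM in the subclones, the genes most like Col4a1 over these libraries were Mgat3, a glycosyltransferase gene (r = 0.972), Nid2, which encodes the basement membrane protein nidogen-2 (r = 0.970), and Fkbp10, which encodes a collagen chaperone (r = 0.960). The same 3 genes came closest to Col4a2, led by Nid2 (r = 0.983). Nid2 had 0.428 ± 0.0866 TPM in polyclonal cells and 63.3 ± 3.92 TPM in WT5 (SD, n = 4). Mgat3 went from 5.65 to 18.4 TPM in the mean and Fkbp10 from 67.4 to 89.5 TPM. The family was chosen by this comparison of WT5 and polyclonal cells, so these values are a description and no separate test of the likeness.

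The genes most like Col4a3 were Wnt9a, a Wnt ligand gene (r = 0.946), Hsd11b2, which encodes an enzyme that inactivates glucocorticoids (r = 0.932), and Atl3, which encodes a protein that shapes the endoplasmic reticulum (r = 0.932). For Col4a4 they were Atl3 (r = 0.962), Trps1, which encodes a zinc finger repressor (r = 0.962), and Kat6b, which encodes a histone acetyltransferase (r = 0.958). Unlike Col4a3, Wnt9a was higher in polyclonal cells, with means of 26.6 TPM there and 10.1 TPM in WT5. Col4a5 was matched best by Mgat3 (r = 0.936), Fkbp10 (r = 0.934) and Corin (r = 0.928), and Col4a6 by Foxc1 (r = 0.919), Slc12a9 (r = 0.916) and Cbs (r = 0.914). From polyclonal cells to WT5 the means went from 53.5 to 158 TPM for Foxc1, from 12.1 to 21.4 TPM for Slc12a9 and from 2.71 to 167 TPM for Cbs. That of Col4a6 itself went from 13.8 to 13.3 TPM.

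Genes that act on type IV collagen were followed as 6 lists with 88 genes found in the tables, covering modification and folding, export, cross-linking, basement membrane partners, receptors, and proteases with their inhibitors. Between WT5 and polyclonal cells 3 of 67 tested (4.48%) were differentially expressed, against 5.43% of all genes. All 3 were higher in WT5: Nid2 with a z-score difference of 2.26, Timp3, an inhibitor of metalloproteases bound to the matrix, with 1.25, and Loxl4, of the lysyl oxidase family of cross-linking enzymes, with 1.03. None was in the lists of modification and folding (17 tested), export (11 tested) or receptors (14 tested), and 1 was in each of the lists of cross-linking (6 tested), basement membrane partners (15 tested) and proteases with inhibitors (4 tested). Timp3 had 0.428 ± 0.0299 TPM in polyclonal cells and 7.43 ± 0.337 TPM in WT5. Loxl4 had 1.54 ± 0.373 and 16.2 ± 0.796 TPM.

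Timp3 was not tested in the comparisons of the subclones, since it was listed at 0 in a library of subclone 1. It had 0.0 to 0.04 TPM in subclone 1 and means of 5.23, 4.005, 6.14 and 8.30 TPM in subclones 2 to 5, so that subclone 1 lay below WT5, polyclonal cells and all other subclones. Against WT5 none of the 69 list genes that could be tested was called in any subclone by limma or by the unequal-variance test, where the rule called 0.144% to 0.202% of all genes. At an unadjusted p below 0.05 by limma there were 42, 43, 47, 46 and 39 of them in subclones 1 to 5, with 51.0%, 51.5%, 46.2%, 59.0% and 49.1% of all genes. Among the subclones 34 of 69 (49.3%) passed the F test, against 24.6% of all genes, with 8 of 16 for modification and folding, 5 of 11 for export, 4 of 7 for cross-linking, 8 of 18 for basement membrane partners, 8 of 13 for receptors and 1 of 4 for proteases with inhibitors. The median spread of the listed genes between the highest and lowest subclone was 0.13 in z-score, and 0.0952 over all genes. Among the genes tested the widest were those of Frem2, a gene of the Fraser complex of basement membranes, Lama3, which encodes a laminin chain, P3h1, a prolyl 3-hydroxylase gene, and Itga2, which encodes the α2 subunit of a collagen-binding integrin. Frem2 went from 0.61 ± 0.203 TPM in subclone 3 to 4.12 ± 0.845 TPM in subclone 5, and Lama3 from 0.62 ± 0.119 TPM in subclone 5 to 2.68 ± 0.344 TPM in subclone 3.

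Subclone 5, with the highest Col4a1 and Col4a2, had 27 of 69 list genes past the adjusted p-value (39.1%, against 14.5% of all genes), of which 19 were higher and 8 lower than in the other subclones. Of the modification and folding genes 6 of 16 were higher and none lower. Of the basement membrane partners 8 of 18 were higher and 1 lower. The median z-score difference of all list genes was 0.0398, against 0.00221 over all genes. Frem2 was higher by 0.65 in z-score, Lama1 by 0.28, Mmp2, a type IV collagenase gene, by 0.19 and Nid2 by 0.17. Mmp2 was low throughout, with means from 0.5125 TPM in subclone 4 to 0.76 TPM in subclone 5. Lama3 was lower, with -0.30, as were Itga2 with -0.18, Pxdn, whose product peroxidasin makes the sulfilimine cross-links of type IV collagen, with -0.10, and Sdc1, which encodes syndecan-1, with -0.0952. Pxdn had 25.3 ± 4.54 TPM in subclone 5 and between 29.1 ± 4.71 and 35.5 ± 1.32 TPM in the other subclones.

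In subclone 2, with the highest Col4a3 and Col4a4, 10 of 69 passed (14.5%, against 5.95% of all genes), 2 higher and 8 lower. Higher were Itgb3, an integrin gene, with 0.18 in z-score, and Timp1, a metalloprotease inhibitor gene, with 0.15. Itgb3 was low throughout, with means from 0.2975 TPM in subclone 4 to 0.5275 TPM in subclone 2. Among the lower genes P3h1 had -0.26, Itga2 -0.23, Lama3 -0.22 and Lama1 -0.20. The means of Itga2, Lama3 and Lama1 in subclone 2 were 0.9, 0.7225 and 0.68 TPM. The median z-score difference of the list genes was -0.000626.

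In the other subclones fewer or more mixed list genes passed. Subclone 1 had 3 of 69 (4.35%, against 4.36%), a higher Itga2 (0.25), a lower Frem2 (-0.41) and a lower Sec24d, an export gene (-0.13). Subclone 3 had 4 of 69 (5.80%, against 4.85%), a higher Lama3 (0.55) and lower Frem2 (-0.53), Sparc (-0.0815) and Plod1 (-0.0607). Subclone 4 had 21 of 69 (30.4%, against 18.4%), 9 higher and 12 lower. There Frem2 (0.39), P3h1 (0.24), Itga2 (0.17) and Itga1 (0.15) led the higher genes, and Loxl3 (-0.30), Itgb3 (-0.19), Lama1 (-0.19) and Sec13 (-0.15) the lower ones.

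Around Col4a1 and Col4a2, the 10 nearest protein-coding genes with a mean of at least 1 TPM in some group had WT5 to polyclonal ratios between 0.486 and 4.36, with a median of 1.19, against 231 and 111 for the pair itself. The nearest on the side of Col4a2 was Rab20, which lies 4231 bases beyond it and encodes a small GTPase, with 75.9 TPM in polyclonal cells and 36.8 TPM in WT5. The nearest on the side of Col4a1 was Irs2, an insulin receptor substrate gene 189965 bases away, with 10.4 and 45.5 TPM. The large difference was thus not seen in the flanking genes. Among the subclones 2 of these 10 passed the F test, Efnb2 and Rab20, against 24.6% of all genes.

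**Figure D5:**
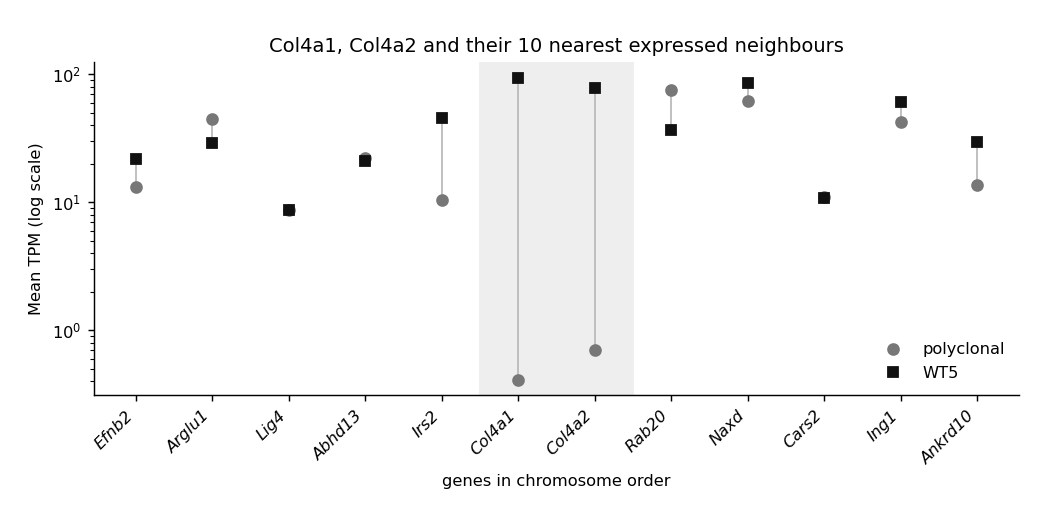
Mean TPM (log scale) in polyclonal cells (circles) and WT5 (squares) of Col4a1, Col4a2 and the 10 nearest protein-coding genes with at least 1 TPM in some group, in chromosome order and not to distance. The shaded pair differs by 231-fold and 111-fold, and the flanking genes by ratios between 0.486 and 4.36.

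Around Col4a3 and Col4a4 the ratios of WT5 to polyclonal cells ran from 0.0118 for Gm9747, a predicted gene, to 7.30 for Ccl20, a chemokine gene, with a median of 1.28. The adjoining genes Rhbdd1 and Mff had 2.15 and 1.28. Around Col4a5 and Col4a6 the highest ratio was 1.23, the median 0.691, and Gm15294 was listed at 0 in WT5 and all subclones. Among the subclones 2 of 10 and 4 of 9 neighbours of these pairs passed the F test, against 24.6% of all genes.

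Little shared sequence was found among the longest transcripts of the genes, read in the direction of transcription only. Antisense matches were not searched. For Col4a1, Col4a2, Col4a3, Col4a5 and Col4a6, no 50 bases in a row of the longest transcript recur in that of any other gene, and 7 of 10059 such stretches of Col4a4 do. Whether the counting used strand is not given in the sources used here, so reads of antisense transcripts may count for either gene. C430014B12Rik, which overlaps exons of Col4a3 on the other strand, had at most 2.34 TPM in any library, and Gm15418 and Gm15419, antisense to Col4a1 and Col4a2, had at most 0.09 and 0.19 TPM.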

How the data were processed

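RNA sequencing values of 28 libraries of mIMCD-3 cells were used, 4 per group. As deposited by the authors, they are TPM: per the labels and the study's methods, reads were base-called with CASAVA 1.8, aligned to GRCm38 with STAR 2.7.3a and quantified with RSEM 1.3.1 on an Ensembl annotation. One table holds polyclonal and WT5 libraries and another the subclones. TPM keeps no depth, so no counting error can be given, and the lowest value above 0 is 0.01.

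Groups were taken from the labels. For each comparison, log2(TPM) was taken with no pseudocount, and z-scores were formed library by library from genes above 0 in all of its libraries (13723 for WT5 against polyclonal cells, 13860 for the subclones against WT5, 14031 among the subclones). Limma 3.58.1 in R 4.3.3 was fitted across all genes with two-sided tests and Benjamini-Hochberg adjustment, and the scripts were tested on simulated data. The threshold of the study's methods, an adjusted p-value below 0.01 with z-scores more than 1 apart, was used. Among the subclones no size was required. The fits against WT5 had been planned for a single table, and the tables were joined by gene identifier. Ratios of a pair were taken per library and compared by permutation of the 20 subclone libraries. Python 3.11.15 with numpy 2.4.6, pandas 2.3.3 and matplotlib 3.10.9 was used. Coordinates are those of GENCODE M21 and sequences those of RefSeq, on the authors' build.

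The members, lists, markers and tests were chosen with earlier results of these data known. All 6 members are named. From the lists, up to 4 called genes with the largest z-score difference in each direction per comparison are named, and for each member the 3 genes with the highest r. Alternatives were pseudocounts of 0.1 and 1, a mean TPM of at least 1, no z-scores, the unequal-variance test of the study's methods, the replicate number as a block, other thresholds, all 24 libraries in 1 fit, and each library left out. Leaving out both libraries that stood apart, and setting subclones 2 and 5 against subclones 1, 3 and 4 alone, were chosen after seeing the data. One further marker list is not reported here.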

Additional observations from a re-analysis of the deposited data

Results flagged for a closer look

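In groups of 4 libraries, the highest or lowest library was marked where its gap to the next as a share of the range exceeded the 95% critical value of Dixon's test. Chance marks about 1 in 20 groups, and 5 of 62 were marked. Col4a1 had 104.53 TPM in WT5 replicate 3, above the other WT5 libraries. Col4a4 had 14.56 TPM in polyclonal replicate 2 and 19.72 TPM in WT5 replicate 1, each below the rest of its group. The ratio of Col4a3 to Col4a4 was 1.21 in subclone 1 replicate 4, below the others of subclone 1. The ratio of Col4a5 to Col4a6 was 3.79 in subclone 5 replicate 1, one of the libraries that stood apart over all genes, and above the others of subclone 5.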

How the results depend on the processing

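Between WT5 and polyclonal cells 2 of the 6 genes were called in each alternative that kept the requirement on size, except that without z-scores, with a log2 difference above 1, 3 were, and 5 were without that requirement. Against WT5, 0 of 6 genes were called in each subclone under each alternative, except in the following fits. Without z-scores 1 gene was called in subclone 5 (Col4a3, log2 difference -1.06), against 3.45% of all genes. Without a requirement on size 2, 3, 2, 4 and 3 genes were called in subclones 1 to 5. The shares of all genes there were 26.3%, 26.0%, 19.5%, 37.3% and 21.9%. Among the subclones 6 of 6 genes passed the F test in each alternative but 2. With log2(TPM + 0.1) 5 passed, against 14.5% of all genes, and without z-scores 4, against 17.8%.

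Against the other subclones the counts moved more, and the cause was not tested. With the settings as reported, 4.36%, 5.95%, 4.85%, 18.4% and 14.5% of all genes passed in subclones 1 to 5. With a z-score difference above 1 required, 0 genes passed in any subclone, by construction of that rule, as the largest difference was 0.22. Without z-scores 1 gene passed in subclone 2 (3.61% of all genes), 0 in subclone 3 (3.21%) and 0 in subclone 4. With log2(TPM + 0.1) 3 genes passed in subclone 2. At an adjusted p below 0.05, 1, 3 and 2 genes passed in subclones 1, 3 and 4. Against the mean of subclones 1, 3 and 4 alone, a reference chosen after seeing the data, 2 genes passed in subclone 2 and 4 in subclone 5. Without both libraries that stood apart, 0 genes passed in subclone 3 and 2 in subclone 4. With each library left out in turn, between 2 and 6 genes passed in subclone 2, 0 and 2 in subclone 4 and 4 and 6 in subclone 5. The 2 genes in subclone 2 arose without subclone 2 replicate 2, 3 or 4.

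With the replicate number as a block 3 genes passed in subclone 2 and 5 in subclone 5, where Col4a1 and Col4a2, and Col4a4, were lost. The numbers showed no pairing of the libraries. Deviations from group means correlated at -0.00971 to 0.0179 between WT5 and polyclonal libraries of the same number. Among subclone libraries the correlation was above 0.1 in 3 of 40 pairs of the same number and in 8 of 120 pairs of different numbers.

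Signs turned for some differences that were not past both thresholds. Between WT5 and polyclonal cells Col4a5 went from -0.0259 to 0.0248 with log2(TPM + 0.1) and to 0.13 on the log2 scale without z-scores, and Col4a6 from -0.0902 to 0.000658 with log2(TPM + 0.1). Col4a3 in subclone 2 against WT5 was -0.0622 on the log2 scale without z-scores, and with a library left out its z-score difference lay between -0.0170 and 0.0109. Col4a1 and Col4a2 in subclone 5 against WT5 were -0.0460 and -0.00712 without z-scores. In subclone 3 against the others, Col4a4 was 0.0127 without both libraries that stood apart. With each library left out Col4a3 lay there between -0.0480 and 0.0021 and Col4a4 between -0.0426 and 0.0197, with the positive values from the fit without subclone 3 replicate 2. Depth is unknown, so the counting error of values below 1 TPM cannot be given. This covers Col4a1 and Col4a2 in polyclonal cells and list genes such as Itgb3 and Mmp2 in the subclones.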
